A study of Mus musculus with 6 samples.

Results

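The genes described are those of the mouse translation initiation factors (Eif1 to Eif6) and elongation factors (Eef1 and Eef2), with the eIF4E-binding repressors, the eIF2 alpha kinases and the enzymes that modify elongation factors. They were taken from the count table by name, as every protein-coding row whose symbol begins with Eif and a digit from 1 to 6 or with Eef and 1 or 2. That gave 67 genes of 40166 rows, of which 20157 are protein-coding. A further 10 rows with such a name (9 processed pseudogenes and 1 lincRNA) are not protein-coding and were left out. The libraries came from tumors of YUMM3.3, a mouse melanoma cell line with an activating Braf mutation, grown under the skin of C57BL/6 mice. Mice of the control group received water by oral gavage (vehicle, libraries 7, 8 and 9), and mice of the other received Rigosertib (RGS), a small-molecule inhibitor of RAS effector signaling, at 300 mg/kg by the same route (libraries 10, 11 and 12). All tumors were sampled after 17 days of treatment, and line, host strain and time were the same in both groups. The labels give no further allele or agent for either group.

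Total counts per library ran from 13837932 to 32555494, with the 3 shallowest libraries all in the RGS group. Markers of the host cells of a tumor were mixed. No more than 3 counts in any library were found for Ptprc, Cd3e, Cd8a, Ms4a1 and Nkg7 of leukocytes, for Adgre1 and Csf1r of macrophages, for Emcn of endothelium, and for the globin genes Hba-a1, Hba-a2, Hbb-bs and Hbb-bt. Pigment cell genes Dct, Mlana, Tyr and Tyrp1 were also at this floor, whereas Mitf was present at 5.46 ± 1.74 CPM (counts scaled for library size; SD, n = 3) in vehicle and 7.43 ± 2.97 CPM in RGS (SD, n = 3). Most blood and immune cell markers that would go with the tissue label, melanoma tumor, were thus at this floor. Cd68 of the macrophage list was at 58.8 to 87.7 CPM in all 6 libraries and did not pass the test used below (adjusted p = 0.293). Mrc1 and Itgam of the same list reached no more than 0.428 and 0.245 CPM, both in RGS 12. Summed CPM of the 4 endothelial markers was 0.731 to 0.962 in vehicle and 3.24 to 11.1 in RGS. Cdh5 made up most of the RGS sum and rose 11.1-fold, with 0.555 ± 0.266 CPM in vehicle against 6.20 ± 3.78 in RGS (SD, n = 3, adjusted p = 0.000637). Pecam1 reached at most 1.04 CPM and did not pass (adjusted p = 0.351), and Kdr had too few counts to be tested. Summed CPM of the 5 fibroblast markers was 187 to 254 in vehicle and 137 to 153 in RGS, and its members moved in both directions. Dcn rose 9.44-fold, with 1.14 ± 0.495 CPM against 10.7 ± 4.61 (SD, n = 3; adjusted p = 6.23e-05). Pdgfrb fell 4.60-fold, with 14.5 ± 3.99 CPM against 3.15 ± 1.06 (SD, n = 3; adjusted p = 0.000179), and Pdgfra 1.62-fold, with 179 ± 30.1 CPM against 110.5 ± 12.6 (SD, n = 3; adjusted p = 0.00312), while Col1a1 had a log2 fold change of 0.10 (adjusted p = 0.811) and Lum was at 0 counts. Alas2 of the erythroid list was at 0 CPM in vehicle and RGS 11 and at 0.710 and 0.734 CPM in RGS 10 and 12, a call (adjusted p = 0.033) that no leave-one-out fit kept. Summed CPM of 5 dividing-cell markers (Mki67, Top2a, Ccnb1, Cdk1, Pcna) was 634 to 679 in vehicle and 310 to 381 in RGS. Of these 5, 4 were called lower, against 16.5% of all genes tested. Vehicle library 7 stood apart from the other vehicle libraries. Its share of counts on ribosomal protein genes was 5.66%, against 8.39% and 10.2% in vehicle 8 and 9 and 3.15% to 3.68% in RGS.

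Initiation factors bring the small ribosomal subunit, the initiator tRNA and the capped mRNA together, find the start codon and then let the large subunit join. Elongation factors deliver each aminoacyl-tRNA and move the ribosome along the message. Cells control the process mainly at eIF2, which kinases can phosphorylate under stress, and at the cap-binding protein eIF4E, which 4E-BP proteins hold back until mTORC1 phosphorylates them. Many factor mRNAs, like those of ribosomal proteins, begin with a pyrimidine tract through which their own translation follows mTORC1.

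Of the 67 genes, 64 had enough counts to be tested, and edgeR called 20 lower and 8 higher in RGS at an adjusted p under 0.05, leaving 36 not called. The background was 16.5% of all 15355 genes tested called lower and 16.3% called higher, or 32.8% in either direction, against 31.25% and 12.5% of the factor genes. The lower share thus stood above the background and the higher share below it, which is a description of these genes and not a test. The median log2 fold change was -0.17 over the 64 factor genes and -0.05 over all genes tested. Groups did not overlap where every library of one lay above every library of the other. This held for 24 of the 64 factor genes in the lower direction and 11 of the 64 in the higher. For all genes tested the same count gave 24.0% lower and 21.7% higher, or 45.8% in all. At a fold of 2 or more, 10 of the 64 factor genes were called lower and 4 of the 64 higher, where the background was 9.44% and 7.61% of all genes. Since these are bulk RNA counts, fewer cells of a kind and less RNA per cell cannot be told apart, and p-values measure the spread between these 6 libraries. The plot of log2 fold changes by role shows the called genes spread through the roles: the initiation scaffold eIF3, eIF2 and the eEF1 complex lie mostly to the left, and eIF5B and the large eIF4G proteins to the right.

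**Figure D1:**
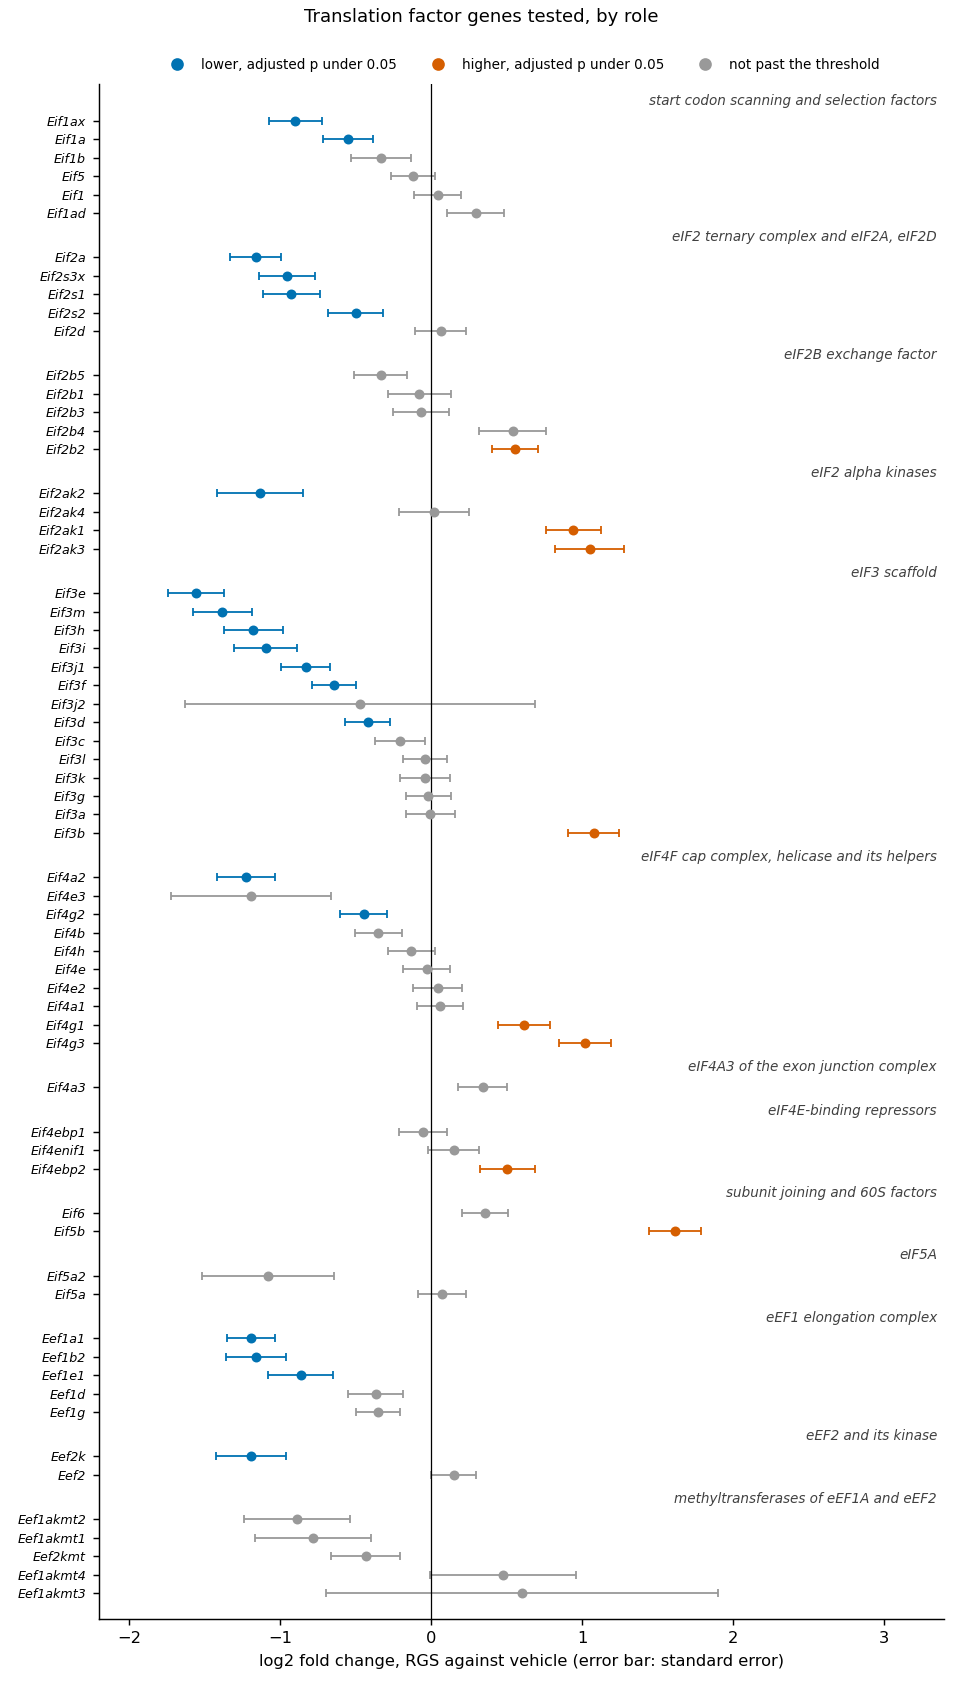
Log2 fold change of each of the 64 tested factor genes (x axis, RGS against vehicle) with its standard error as a bar, grouped by role down the y axis. Blue points were lower and orange points higher by the edgeR test (20 and 8 genes), from Eif3e at -1.56 to Eif5b at 1.62, and grey points did not pass.

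The remaining 3 genes were not tested. Eef1a2, the form of eEF1A found in neurons and muscle, and Eif4e1b had no counts in any library. Eif4ebp3 had 2 counts in vehicle 8 and 14 in RGS 12, and none in the other libraries.

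As a share of each library, the factor genes took up less of the RGS libraries than of the vehicle libraries. They received 3.62%, 4.28% and 4.21% of all counts in vehicle and 2.54%, 2.46% and 2.43% in RGS, which is 4.04% ± 0.360 (SD, n = 3) against 2.48% ± 0.0561 (SD, n = 3). The groups did not overlap, and the difference of the means was -1.56 percentage points. Most of it lay in Eef1a1, which alone took 1.85% ± 0.315 of vehicle counts and 0.738% ± 0.0472 of RGS counts (SD, n = 3 each). Without Eef1a1 and Eef2 the difference was -0.450 points. Eef2 held 0.449% ± 0.0739 and 0.451% ± 0.0332 (SD, n = 3 each), so that among factor mRNAs Eef1a1 fell from 45.7% ± 3.93 to 29.8% ± 1.22 of the total (SD, n = 3 each). Mitochondrial genes moved the other way, from 2.52% ± 0.589 to 7.02% ± 1.33 of counts (SD, n = 3 each). When they were taken out of the totals the shares of the factor genes were 4.14% and 2.66%. Ribosomal protein genes moved the same way as Eef1a1, at 8.09% ± 2.29 and 3.37% ± 0.272 of counts (SD, n = 3 each). Of 80 tested 62 were called lower, against 16.5% of all genes tested.

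**Figure D2:**
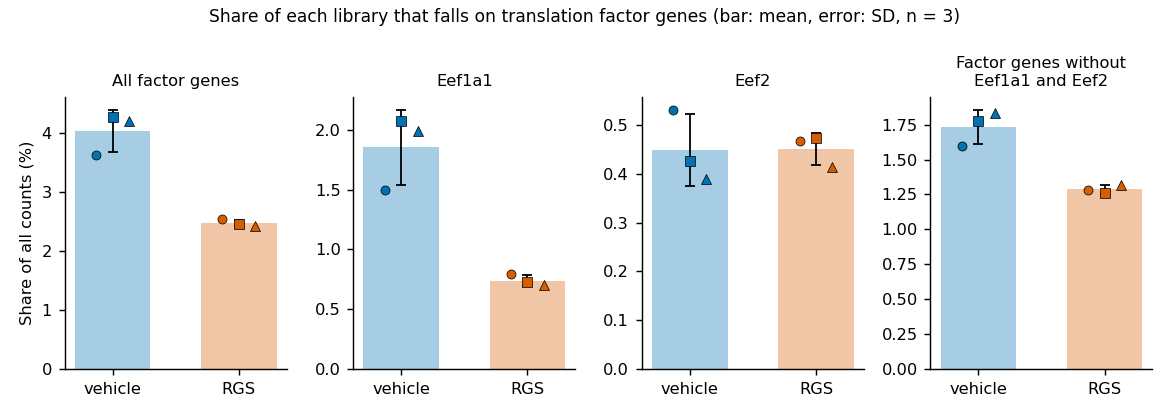
Share of all counts (y axis, percent) on the factor genes, on Eef1a1, on Eef2 and on the factor genes without both, in vehicle (blue) and RGS (orange). Bars are means of 3 libraries with SD and points are libraries (circle 7 or 10, square 8 or 11, triangle 9 or 12); the factor genes together fell from 4.04% to 2.48%, while Eef2 stayed near 0.45%.

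Of the 5 tested genes grouped here with the eEF1 complex 3 were lower and 2 were not called, and Eef2 was not called either. Over all genes tested 16.5% were called lower. The eEF1 complex carries aminoacyl-tRNA to the ribosome (eEF1A) and reloads eEF1A with GTP (the B and D subunits). Eef1a1 (chr9:78478449-78489151, minus strand, mm10) had 13877, 19731 and 19507 CPM in vehicle and 8094, 7559 and 7602 CPM in RGS. It fell 2.28-fold (log2 fold change -1.19 ± 0.16 SE, adjusted p = 1.29e-05), and the lowest vehicle library still held more than the highest RGS library. Eef1b2, the GDP-exchange subunit, had 625, 939 and 1235 CPM in vehicle and 385, 411 and 459 CPM in RGS, and fell 2.23-fold (log2 fold change -1.16 ± 0.20 SE, adjusted p = 0.000179). Eef1e1, an adaptor of the aminoacyl-tRNA synthetase complex, had 48.8, 70.2 and 91.7 CPM in vehicle and 33.3, 35.6 and 46.9 CPM in RGS, a fall of 1.82-fold (adjusted p = 0.00501). All 3 were lowest in vehicle 7 among the vehicle libraries. Eef1d, the other exchange subunit, and Eef1g were at -0.37 ± 0.18 (adjusted p = 0.134) and -0.35 ± 0.15 (SE, adjusted p = 0.0758) and did not pass. They passed without vehicle 7, at -0.53 (adjusted p = 0.00562) and -0.40 (adjusted p = 0.00889).

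Eef2, the factor that moves the ribosome by a codon, had 4938, 4042 and 3814 CPM in vehicle and 4787, 4928 and 4489 CPM in RGS. These groups overlapped, and the log2 fold change was 0.15 ± 0.15 SE (adjusted p = 0.472); without vehicle 7, the highest of the vehicle libraries, it was 0.27 (adjusted p = 0.0347). The count ratio of Eef1a1 to Eef2 within a library was 2.81, 4.88 and 5.11 in vehicle and 1.69, 1.53 and 1.69 in RGS, without overlap. A ratio within a library does not depend on how libraries were scaled, and this pair was picked after its values were seen. Eef2k, the kinase that phosphorylates and slows eEF2, had 57.4, 34.1 and 36.0 CPM in vehicle and 20.9, 17.9 and 16.9 CPM in RGS. It fell 2.28-fold (log2 fold change -1.19 ± 0.23 SE, adjusted p = 0.000564), and unlike the eEF1 genes it was highest in vehicle 7. Per kilobase of its exons the Eef1a1 level was 7102 CPM in vehicle and 3109 CPM in RGS, the Eef2 level 1283 and 1424, and the Eef2k level 5.74 and 2.51, so Eef1a1 remained above Eef2 in both groups. Of the 5 tested methyltransferases of eEF1A and eEF2, edgeR called 0, with 1 at an unadjusted p under 0.05; DESeq2 called 0 and limma voom with quality weights 2 (Eef1akmt1 and Eef1akmt2). Eef1akmt2 was at -0.89 ± 0.35 (SE, adjusted p = 0.0618). It passed without vehicle 7 (-1.09, adjusted p = 0.0236) and without RGS 11 (-1.36, adjusted p = 0.00648), and Eef2kmt, at -0.43 ± 0.23 (SE, adjusted p = 0.16), passed without RGS 12 (-0.74, adjusted p = 0.0299). Levels of the group were low, with Eef1akmt3 at 0.371 CPM and Eef2kmt at 41.2 CPM in vehicle.

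Subunits of eIF3, the scaffold that holds the small ribosomal subunit ready for the mRNA, did not move together. Of 14 tested genes 7 fell, 1 rose and 6 were not called, against 16.5% lower and 16.3% higher of all genes tested. Eif3e (chr15:43250058-43282719, minus strand) had 528, 785 and 934 CPM in vehicle and 239, 245 and 280.0 CPM in RGS. It fell 2.94-fold (log2 fold change -1.56 ± 0.19 SE, adjusted p = 4.13e-06), the furthest of all factor genes. Eif3m had 213, 338 and 393 CPM against 109.7, 116 and 136 CPM and fell 2.61-fold (-1.38 ± 0.20 SE, adjusted p = 2.63e-05). Eif3h had 751, 1237 and 1411 CPM against 441, 531 and 531 CPM and fell 2.26-fold (-1.18 ± 0.19 SE, adjusted p = 0.000136). In each of these 3 genes vehicle 7 lay between the other vehicle libraries and RGS. Eif3i had 145, 253 and 269 CPM against 91.8, 92.7 and 128 CPM and fell 2.14-fold (adjusted p = 0.00051). Eif3j1, a loosely bound subunit, fell 1.78-fold (81.5, 81.1 and 87.0 CPM against 45.5, 45.5 and 49.5 CPM, adjusted p = 0.000657), and Eif3f fell 1.56-fold (425, 396 and 374 CPM against 249, 245 and 273 CPM, adjusted p = 0.00235). Eif3d, which can itself bind the cap of some mRNAs, was the weakest eIF3 call at -0.42 ± 0.15 (SE, adjusted p = 0.0371). That call was lost when any library but vehicle 7 was left out (vehicle 8 or 9, RGS 10, 11 or 12), with values of -0.47 to -0.35 and adjusted p of 0.0683 to 0.14.

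Against these, Eif3b, the subunit that anchors the g and i subunits, had 262, 180.0 and 178 CPM in vehicle and 439.6, 436 and 434 CPM in RGS. It rose 2.11-fold (log2 fold change 1.08 ± 0.17 SE, adjusted p = 7.09e-05), and the RGS libraries differed from each other by far less than the vehicle libraries. Eif3a, Eif3c, Eif3g, Eif3k and Eif3l lay between -0.21 and 0.00 on the log2 scale and did not pass; Eif3l, for example, had 252 ± 3.99 CPM in vehicle and 245 ± 23.2 CPM in RGS (SD, n = 3 each). Eif3j2 was present at under 2 CPM in every library (-0.47 ± 1.16 SE). Of the 8 subunits of the core with PCI or MPN domains 4 fell (Eif3e, Eif3m, Eif3h, Eif3f) and 4 were not called. Of the 6 others 3 fell and 1 rose, where 16.5% of all genes tested were called lower and 16.3% higher. This split was added after the values had been seen. Within a library the count ratio of Eif3b to Eif3e was 0.495, 0.229 and 0.191 in vehicle and 1.84, 1.78 and 1.55 in RGS, and that of Eif3e to Eif3l was 2.14, 3.10 and 3.66 against 1.01, 1.08 and 1.03. Both pairs were chosen after seeing their values. The dot plot of eIF3 subunits shows these opposite shifts library by library.

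**Figure D3:**
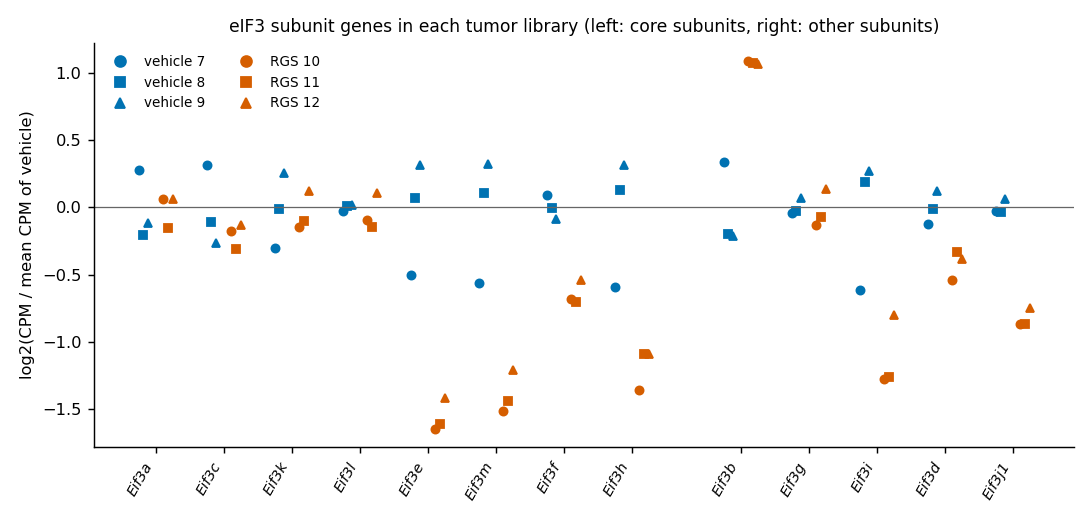
CPM of 13 eIF3 subunit genes in each of the 6 libraries, as log2 of the ratio to the mean of the vehicle libraries (y axis; Eif3j2 is left out for its low counts). Blue points are vehicle and orange points RGS: Eif3e, Eif3m, Eif3h and Eif3i lie lowest in RGS, Eif3b lies near 1.08 in all 3 RGS libraries, and Eif3a, Eif3c, Eif3g, Eif3k and Eif3l overlap.

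eIF2 carries the initiator tRNA as a complex with GTP, and its 3 subunit genes with a row were lower in RGS. Over all genes tested 16.5% were called lower. Eif2s1, the alpha subunit that the stress kinases phosphorylate, had 259, 391 and 467 CPM in vehicle and 183, 184 and 221 CPM in RGS and fell 1.90-fold (log2 fold change -0.93 ± 0.19 SE, adjusted p = 0.000921). Eif2s3x, the X-linked gamma subunit, had 103, 103 and 86.2 CPM against 60.6, 51.5 and 38.5 CPM and fell 1.94-fold (adjusted p = 0.000595). Eif2s2, the beta subunit, had 489.8, 706 and 852 CPM against 433, 469 and 547 CPM. Here the groups overlapped, since RGS 12 lay above vehicle 7, and the call was weak (-0.50 ± 0.18 SE, adjusted p = 0.0436). It was lost without vehicle 8 or 9 or RGS 10 or 11 (-0.49 to -0.30, adjusted p of 0.115 to 0.212). Eif2a, a separate factor that can bring initiator tRNA to some messages without eIF2, had 111, 148 and 153 CPM against 60.6, 64.0 and 59.7 CPM and fell 2.23-fold (-1.16 ± 0.17 SE, adjusted p = 3.42e-05). Eif2d, which also handles initiator tRNA outside eIF2, was at 0.07 ± 0.17 (SE, adjusted p = 0.802).

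eIF2B is the exchange factor that recharges eIF2 with GTP and is inhibited by phosphorylated eIF2. Of all genes tested 16.3% were called higher, a share near the 1 of 5 tested genes of eIF2B that rose. Eif2b2, its beta subunit, had 154, 178 and 154 CPM in vehicle and 217, 236 and 263 CPM in RGS and rose 1.47-fold (0.56 ± 0.15 SE, adjusted p = 0.00828), a call lost without RGS 12 (0.46, adjusted p = 0.0614). Eif2b5, the catalytic subunit, had 72.3, 88.2 and 79.3 CPM against 76.2, 58.4 and 55.8 CPM (-0.33 ± 0.18 SE, adjusted p = 0.156). Eif2b4 was at 0.54 ± 0.22 (SE, adjusted p = 0.0678), Eif2b1 at -0.08 and Eif2b3 at -0.06. No eIF2B gene was called lower by edgeR, at an unadjusted p under 0.05 or by DESeq2, whereas limma voom with quality weights called 1 (Eif2b5).

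The kinases that phosphorylate eIF2 alpha differed in direction. Eif2ak1, the heme-regulated kinase that also relays mitochondrial stress, had 40.9, 30.0 and 37.9 CPM in vehicle and 73.3, 64.2 and 71.8 CPM in RGS, and rose 1.92-fold (log2 fold change 0.94 ± 0.18 SE, adjusted p = 0.000514). Eif2ak3, the endoplasmic reticulum kinase PERK, had 16.6, 12.01 and 14.0 CPM against 32.1, 25.7 and 30.3 CPM and rose 2.07-fold (1.05 ± 0.23 SE, adjusted p = 0.00162). Eif2ak2, the double-stranded RNA kinase PKR and an interferon target, had 40.6, 32.2 and 42.7 CPM against 27.6, 14.5 and 10.3 CPM and fell 2.19-fold (-1.13 ± 0.28 SE, adjusted p = 0.00477). The RGS libraries were spread widely for it, with RGS 10 nearest to vehicle. Eif2ak4, the amino acid sensor GCN2, had 50.3, 42.4 and 32.0 CPM against 39.1, 57.0 and 30.4 CPM, with overlap and a log2 fold change of 0.02 ± 0.23 SE (adjusted p = 0.96). RNA counts do not measure kinase activity.

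Genes linked to eIF2 phosphorylation were taken from a list of stress targets and phosphatase subunits, which also held Impact and Nck1. Of its 10 tested genes 6 fell and 4 were not called (Atf3, Impact, Nck1 and Ppp1r15b), against 16.5% lower and 16.3% higher of all genes tested. Trib3, a pseudokinase induced by the stress response, was furthest, at 123, 137 and 111 CPM in vehicle and 33.6, 31.4 and 32.1 CPM in RGS (-1.93 ± 0.17 SE, adjusted p = 8.05e-08). Chac1, a glutathione-degrading enzyme, was at -1.68 ± 0.17 (SE, adjusted p = 4.97e-07) and Ddit3, the transcription factor CHOP, at -1.33 ± 0.16 (SE, adjusted p = 5.86e-06). Atf4, whose translation rises when eIF2 is phosphorylated, was at -0.47 ± 0.15 (SE, adjusted p = 0.022), from 765 ± 60.7 to 554 ± 56.1 CPM (SD, n = 3 each). Ppp1r15a, which brings a phosphatase back to eIF2, was at -0.44 ± 0.16 (SE, adjusted p = 0.0364), and the constitutive Ppp1r15b did not pass (0.20 ± 0.15 SE, adjusted p = 0.35). The Atf4 call was lost without vehicle 8 or 9 or RGS 10 or 11 (adjusted p of 0.058 to 0.109), and that of Ppp1r15a without vehicle 8 or RGS 10 or 11 (adjusted p of 0.0974 to 0.169) or with a gene length offset (-0.35, adjusted p = 0.0626). In the dot plot of the eIF2 genes, both risen kinases stand above the other genes shown, and the 6 called stress genes lie below the vehicle libraries.

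**Figure D4:**
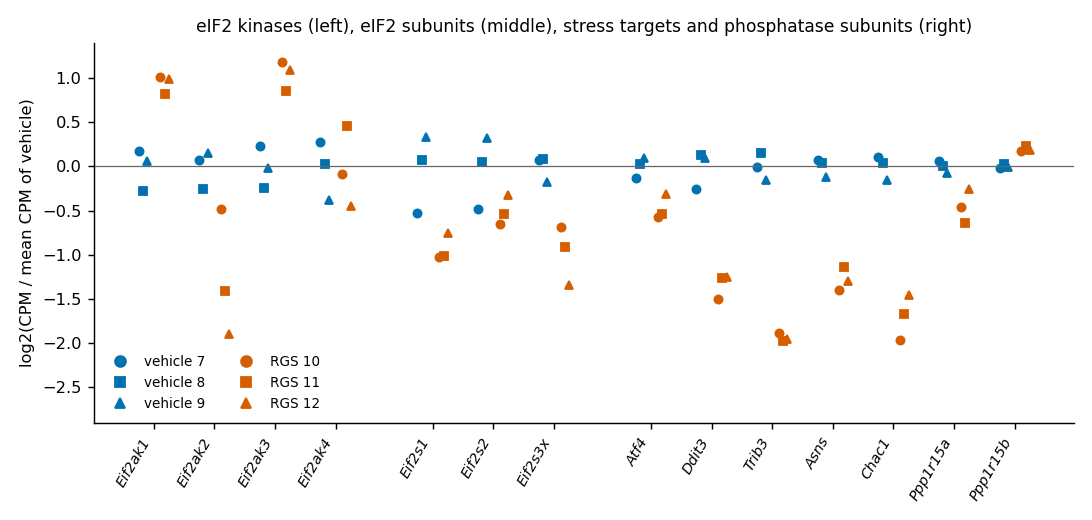
CPM of the eIF2 alpha kinases, the eIF2 subunits, stress targets and phosphatase subunits in each library, as log2 of the ratio to the vehicle mean (y axis, blue vehicle, orange RGS). Eif2ak1 and Eif2ak3 lie higher in all RGS libraries, Eif2ak2 and Trib3 lower, and Eif2ak4 overlaps.

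Cap recognition is carried out by eIF4F, made of the cap-binding protein eIF4E, the scaffold eIF4G and the helicase eIF4A. Of 10 tested genes of this complex and its helpers 2 fell and 2 rose. Both shares are near those of all genes tested (16.5% lower and 16.3% higher), so the counts do not set the group apart. The scaffold genes Eif4g1 and Eif4g3 rose. Eif4g1 had 524, 366 and 324 CPM in vehicle and 642, 597 and 622 CPM in RGS (1.53-fold, 0.62 ± 0.17 SE, adjusted p = 0.0101; 0.47 and 0.0515 with library size as the only scaling), and Eif4g3 had 216, 146 and 141 CPM against 323, 331 and 367 CPM (2.03-fold, 1.02 ± 0.17 SE, adjusted p = 0.000177). Eif4g2, the related protein DAP5 that lacks the eIF4E-binding part, fell instead, from 898, 918 and 839.5 CPM to 766, 569 and 613 CPM (-0.45 ± 0.15 SE, adjusted p = 0.0326). That call was lost without vehicle 8 or RGS 11 or 12 (adjusted p of 0.0951 to 0.158). The helicase gene Eif4a2 had 579, 876 and 1097 CPM in vehicle and 346, 376 and 370.0 CPM in RGS, a fall of 2.34-fold (-1.22 ± 0.19 SE, adjusted p = 7.17e-05). Its close paralog Eif4a1 had 508, 644 and 582 CPM against 559.8, 593 and 656 CPM and was at 0.06 ± 0.15 (SE, adjusted p = 0.795). Eif4e, the cap-binding protein, had 229, 286 and 322 CPM against 268, 263 and 288 CPM (-0.03 ± 0.16 SE, adjusted p = 0.909), and its relative Eif4e2 was at 0.04 ± 0.16 (SE). Eif4e3, a low-level relative at 5.51 ± 1.76 CPM in vehicle and 2.41 ± 0.979 CPM in RGS (SD, n = 3 each), did not pass (adjusted p = 0.0916).

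Eif4b and Eif4h, which stimulate the helicase, did not pass. Eif4b had 1082, 852 and 809 CPM against 779, 675 and 701 CPM (-0.35 ± 0.16 SE, adjusted p = 0.0949), which became -0.43 (adjusted p = 0.0483) without vehicle 9. Eif4a3, the exon junction helicase related to eIF4A, was at 0.34 ± 0.16 (SE, adjusted p = 0.113). Among the repressors, Eif4ebp1 had 213, 233 and 213 CPM against 192, 186 and 257 CPM (-0.06 ± 0.16 SE, adjusted p = 0.825). Eif4ebp2 had 126, 82.1 and 79.0 CPM against 139.6, 129 and 139.6 CPM (0.51 ± 0.18 SE, adjusted p = 0.0389), and this call was lost when any library but vehicle 7 was left out (vehicle 8 or 9, RGS 10, 11 or 12), at 0.39 to 0.53 with adjusted p of 0.0774 to 0.16, and with library size as the only scaling (0.36, adjusted p = 0.161). Eif4enif1, which carries eIF4E into the nucleus and into P-bodies, was at 0.15 ± 0.17 (SE, adjusted p = 0.542).

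Ratios of related genes within a library are free of scaling between libraries. The count ratio of Eif4a2 to Eif4a1 was 1.14, 1.36 and 1.89 in vehicle and 0.618, 0.635 and 0.564 in RGS, a log2 difference of -1.24 with no overlap. The count ratio of Eif4g3 to Eif4g1 was 0.413, 0.398 and 0.436 against 0.502, 0.554 and 0.590, and that of Eif4g1 to Eif4g2 was 0.583, 0.398 and 0.386 against 0.838, 1.05 and 1.02. Groups did not overlap for these 3 pairs, of which the last was chosen after seeing its values. The ratio of Eif4ebp1 to Eif4e, often read as brake against cap binder, was 0.933, 0.816 and 0.662 in vehicle and 0.718, 0.705 and 0.890 in RGS, with overlap. Eif4e2 to Eif4e and Eif4ebp1 to Eif4ebp2 overlapped as well, while Eif1b to Eif1 did not (log2 difference -0.37). Nor did the pairs with a low-level paralog, Eif5a2 to Eif5a (log2 difference -1.17) and Eif4e3 to Eif4e (-1.23), of which Eif5a2 and Eif4e3 did not pass the gene test themselves. With 3 libraries against 3 an exact two-sided permutation test cannot give less than 0.1, so no test was made of a ratio.

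**Figure D5:**
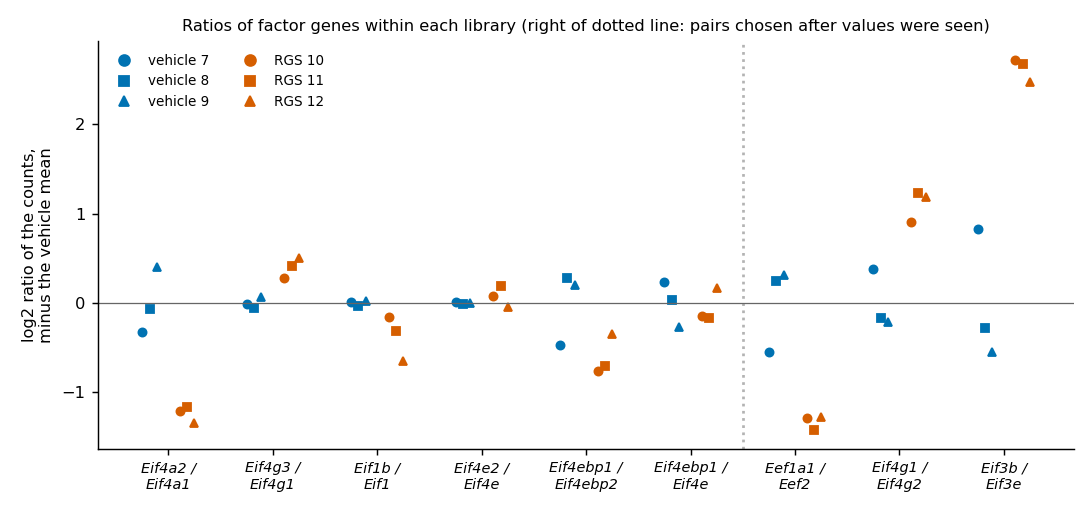
Log2 ratio of the counts of 2 factor genes in each library minus the mean of the vehicle libraries (y axis; blue vehicle, orange RGS). Eif4a2 to Eif4a1 and Eef1a1 to Eef2 are lower in all RGS libraries and Eif3b to Eif3e higher, while Eif4e2 to Eif4e and Eif4ebp1 to Eif4e overlap.

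Start codon selection relies on eIF1 and eIF1A, which keep the scanning ribosome open, and on eIF5, which triggers GTP hydrolysis on eIF2. Of 6 tested genes here 2 fell, against 16.5% of all genes tested, and both were eIF1A genes. Eif1ax had 111, 154 and 177 CPM in vehicle and 78.7, 82.2 and 76.2 CPM in RGS and fell 1.86-fold (-0.90 ± 0.18 SE, adjusted p = 0.000656). Eif1a had 155, 186 and 216 CPM against 136, 108 and 135 CPM (-0.55 ± 0.17 SE, adjusted p = 0.0163), a call lost without vehicle 8 or 9 or RGS 11 (-0.53 to -0.42, adjusted p of 0.0646 to 0.0992). Eif1, Eif1b, Eif5 and Eif1ad ranged from -0.33 to 0.30 and did not pass. Reads may be split between the near-identical eIF1A genes.

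Eif5b, the GTPase that joins the large subunit to the initiation complex and that contacts eIF1A, had the greatest rise of the factor genes. It lies at chr1:37998010-38055579 on the plus strand and had 193, 139 and 147 CPM in vehicle and 432, 457 and 582 CPM in RGS, a rise of 3.07-fold (log2 fold change 1.62 ± 0.17 SE, adjusted p = 1.11e-06). Its exons share 1643 bases with Rev1 on the opposite strand, and no source used here gives the strand setting of the counting. Eif6, which keeps the large subunit from joining too early, had 166, 174 and 173 CPM against 199.8, 208 and 249 CPM and did not pass (0.36 ± 0.15 SE, adjusted p = 0.0761), although the groups did not overlap. Eif5a, the hypusine-bearing factor that helps ribosomes through difficult peptide bonds, had 639.5, 826 and 876 CPM against 739.8, 870.4 and 851 CPM (0.07 ± 0.16 SE, adjusted p = 0.767). Eif5a2, its low-level paralog, had 7.94, 7.73 and 5.25 CPM against 2.79, 4.44 and 2.69 CPM and did not pass (-1.08 ± 0.44 SE, adjusted p = 0.0663), but passed without RGS 11 (-1.36, adjusted p = 0.0308).

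Of the 28 calls, 22 held when each of the 6 libraries was left out in turn, 16 of them lower and 6 higher. Vehicle 7 was the vehicle library nearest to RGS in 14 of the 20 lower genes and 7 of the 8 higher genes, and without it all 28 calls were kept. Exons of 21 factor genes overlap those of another gene. Among those named above, Eif3j1 shares 1107 bases with Spg11 and Eif2ak1 shares 487 with Aimp2, each on the opposite strand, so reads of the pair may not be told apart. Spearman rho between log2 fold change and gene length was 0.08 across the 64 genes and 0.06 over all genes tested, as a description, since genes share these 6 libraries.

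Start sites were viewed because pyrimidine tracts mark growth-controlled mRNAs. RefSeq promoters (build GRCm38.p6) matched 51 of the 67 genes by symbol, the missing ones being Eef1akmt1, Eef1akmt3, Eef1d, Eef1g, Eif1a, Eif2b3, Eif3e, Eif3h, Eif3i, Eif3j2, Eif4e1b, Eif4e3, Eif4ebp1, Eif4ebp3, Eif4g2 and Eif6. A tract was counted as a C followed by at least 6 pyrimidines on the coding strand. It had to begin within 20 bases of the RefSeq start, on either side. Some counted tracts thus lie wholly before the start, as for the lower gene Eif3m, whose tract of 11 bases begins at -20. Tracts of this kind were found for 5 of 15 lower genes, 1 of 8 higher genes and 10 of 27 genes not called, and for 24.0% of all 10048 tested protein-coding genes. Windows of 30 bases, from 10 before the start, are given for genes of each kind, with tracts in capitals; that of Eef2 runs past the window. The first 3 genes were lower, Eef2 and Eif3l were not called and Eif2b2 was higher. The RefSeq start used for Eef1a1 lies inside the interval that the count table gives for that gene.
Eef1a1 (chr9:78481705-78481734, minus strand): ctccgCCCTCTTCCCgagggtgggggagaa
Eif2s3x (chrX:94212632-94212661, minus strand): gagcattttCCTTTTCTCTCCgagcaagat
Eif3f (chr7:108934405-108934434, plus strand): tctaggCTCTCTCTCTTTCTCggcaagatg
Eef2 (chr10:81176621-81176650, plus strand): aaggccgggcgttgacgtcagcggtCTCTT
Eif3l (chr15:79075213-79075242, plus strand): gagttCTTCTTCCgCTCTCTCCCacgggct
Eif2b2 (chr12:85219471-85219500, plus strand): ccgagcggaagttgaCCTCTCTCggcccgg

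The tract is therefore seen beside genes that fell, rose and did neither. The same 300-base promoters were read on both strands, with the 10048 tested protein-coding genes that have an entry as background. CCGGAAG (the ETS motif) was in 17 of the 50 tested factor genes with an entry, against 19.4% of that background. CACGTG (the E-box of MYC and its relatives) was in 13 of 50, against 11.6%. E-box letters were in 2 of 15 lower genes (Eef2k and Eif3f), 1 of 8 higher genes (Eif4g1) and 10 of 27 genes not called. TGACGTCA (the CRE) was in Eef2 only among the 50, against 3.53% of the background genes. Definitions of the tract and the motifs were chosen after the members' sequences had been viewed, and a match is a description of letters, not of a bound site.

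Genes that act on the factors were taken from 7 lists, in which 25 of 81 tested were lower and 12 higher, against 16.5% lower and 16.3% higher of all genes tested. In the list of mTORC1 and its inputs, 3 of 19 fell and 7 rose. Rps6, a ribosomal protein and S6 kinase substrate, was at -1.33 ± 0.20 (SE, adjusted p = 4.12e-05) and Ddit4, a stress-induced inhibitor of mTORC1, at -0.83 ± 0.17 (SE, adjusted p = 0.000946). Deptor, an inhibitor of mTOR, rose at 0.88 ± 0.23 (SE, adjusted p = 0.00633), Larp1, which binds pyrimidine-tract mRNAs, at 0.79 ± 0.17 (SE, adjusted p = 0.00129) and Akt1s1, an mTORC1 inhibitor, at 0.79 ± 0.15 (SE, adjusted p = 0.000617). Tsc2, of the complex that inhibits Rheb and so mTORC1, also rose (0.55 ± 0.18 SE, adjusted p = 0.0265), a call lost without vehicle 8 or 9 or RGS 10 or 12 (adjusted p up to 0.157). Mtor itself was at 0.41 ± 0.21 (SE, adjusted p = 0.135), and at 0.72 (adjusted p = 0.00205) without vehicle 7, while Rheb and Rps6kb1 were at -0.02 and -0.20. Inhibitors of mTORC1 in the list thus included 3 that rose (Deptor, Akt1s1 and Tsc2) and 1 that fell (Ddit4). Of the 10 calls in the list 6 held in every leave-one-out fit. Besides Tsc2, the rise of Akt2 was lost without vehicle 8 or 9 or RGS 11 (adjusted p up to 0.0569) and that of Rptor without any library but vehicle 7 (vehicle 8 or 9, RGS 10, 11 or 12; adjusted p up to 0.262).

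Among partners of the cap complex 3 of 16 fell and 3 rose, in each direction a share near that of all genes tested (16.5% lower and 16.3% higher), so the counts set the list apart in neither direction. Ncbp2, of the nuclear cap-binding complex, rose at 1.32 ± 0.22 (SE, adjusted p = 0.000119), and Mknk2, which phosphorylates eIF4E, had 72.5, 54.9 and 51.3 CPM against 117, 114 and 122 CPM (0.98 ± 0.17 SE, adjusted p = 0.000208). Paip2b, an inhibitor of poly(A)-binding protein, fell at -0.92 ± 0.20 (SE, adjusted p = 0.00175). The other eIF4E kinase, Mknk1, was at 0.10 ± 0.22 (SE), and the eIF4A inhibitor Pdcd4 at -0.15 ± 0.19 (SE). Pabpc1, the main poly(A)-binding protein, was at 0.26 ± 0.15 (SE, adjusted p = 0.202), and at 0.38 (adjusted p = 0.00548) without vehicle 7. Dhx29, Paip2 and Ncbp1, the other calls, were each lost in at least 3 of the leave-one-out fits: Dhx29 without vehicle 7 or 8 or any RGS library (adjusted p up to 0.147), Paip2 without vehicle 8 or 9 or RGS 10 or 11 (up to 0.218), and Ncbp1 without vehicle 8 or 9 or RGS 12 (up to 0.0602).

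Recycling and termination genes fell in 4 of 11 and rose in 1, against 16.5% lower and 16.3% higher of all genes tested. Gtpbp2, which rescues stalled ribosomes, was at -1.02 ± 0.15 (SE, adjusted p = 5.25e-05), Etf1, the release factor eRF1, at -0.78 ± 0.15 (SE, adjusted p = 0.00042) and Abce1, which splits ribosomes after termination, at -0.70 ± 0.15 (SE, adjusted p = 0.00118). Gspt1, the release factor eRF3a, was at -0.43 ± 0.15 (SE, adjusted p = 0.0392) and was lost without vehicle 8 or 9 or RGS 11 or 12 (adjusted p up to 0.154). Pelo, another rescue factor, rose at 1.04 ± 0.28 (SE, adjusted p = 0.00846), and its call was lost without RGS 10 (0.75, adjusted p = 0.0742). Enzymes that modify eIF5A and eEF2 fell in 2 of 10, a share near the 16.5% of all genes tested, so the count does not set the list apart. Dph5, of the diphthamide pathway, was at -0.79 ± 0.24 (SE, adjusted p = 0.0178) and was lost without vehicle 8 or 9 or RGS 11 (adjusted p up to 0.098), and Dhps, which starts hypusine synthesis, was at -0.54 ± 0.20 (SE, adjusted p = 0.0427) and was lost without any library but vehicle 7 (vehicle 8 or 9, RGS 10, 11 or 12; adjusted p up to 0.201) and with a gene length offset (-0.39, adjusted p = 0.0856).

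Mitochondrial translation factors fell in 4 of 10 and rose in 1, against 16.5% lower and 16.3% higher of all genes tested. Guf1, a mitochondrial elongation factor relative, was at -1.29 ± 0.26 (SE, adjusted p = 0.000715), Mrrf, the recycling factor, at -1.14 ± 0.25 (SE, adjusted p = 0.00161), and Tufm, the mitochondrial counterpart of eEF1A, rose at 0.64 ± 0.17 (SE, adjusted p = 0.00617). Mtrf1 was at -1.69 ± 0.62 (SE, adjusted p = 0.0424) and was lost without vehicle 8 or RGS 10 or 11 (adjusted p up to 0.239). Mtif2, the mitochondrial initiation factor, was at -0.64 ± 0.20 (SE, adjusted p = 0.0198) and was lost without vehicle 8 or 9 or RGS 11 or 12 (adjusted p up to 0.120). Of 5 tested growth regulators of factor genes 3 fell, against 16.5% of all genes tested. Myc, which drives many factor genes, had 345, 310.2 and 310.3 CPM in vehicle and 127, 151 and 156 CPM in RGS (-1.15 ± 0.15 SE, adjusted p = 1.27e-05). Tpt1, a pyrimidine-tract mRNA, was at -0.76 ± 0.16 (SE, adjusted p = 0.00158) and Npm1, a nucleolar chaperone, at -0.73 ± 0.17 (SE, adjusted p = 0.00276). Max, at 0.001 ± 0.17 (SE, adjusted p = 0.996), and Ncl, at -0.18 ± 0.16 (SE, adjusted p = 0.42), did not pass. As given above, 4 of 5 markers of dividing cells were lower in RGS, fibroblast markers moved in both directions and Cdh5 alone of the endothelial markers was called. The part of these markers' cells in the results was not tested.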

How the data were processed

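Gene-level read counts of 6 bulk libraries of total RNA (150-base paired-end reads) were used as deposited. Per the submitters' processing notes the authors used cutadapt 1.18, FastQC 0.11.7, STAR 2.7.1a and featureCounts 1.6.4 on mm10; the strand setting and the treatment of multimapping reads were not given in the sources used here. Coordinates are those of the table. The 15355 genes whose median count reached 5 in either group were fitted with edgeR 4.0.16 (TMM, quasi-likelihood F test, R 4.3.3), with Benjamini-Hochberg adjustment over all of them and a threshold of 0.05. CPM are counts over the TMM-scaled library size, SE is the log2 fold change over the square root of F, and overlaps with other genes came from GENCODE M21. Replicates were labelled 7 to 9 and 10 to 12. No source says whether libraries came from separate mice. Depth of each library limits genes at or below 3 counts, and this covers counting error only.

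The factor genes, roles, pathway lists and markers were chosen with earlier results of these data known, so no p was adjusted over a list and no set test was made. Named genes were up to 10 factor genes per direction with the largest change past the threshold and no overlap, the 5 with the highest mean CPM, a fixed list, and up to 3 per direction of each pathway list with a fixed list. Other genes were named within their role. Some genes that the lists hold are not reported here. The eIF3 core split, 7 ratios and the promoter motifs were added after values or sequences were seen. A first tract definition requiring an exact start was replaced by the wider one. Alternatives were DESeq2 1.42.0, limma 3.58.1 voom with quality weights, other scalings and filters, a gene length offset, thinning and leaving out each library. The edgeR step was tested on simulated data; its pass criterion was rewritten, split by expression level, after the first version failed on genes of low counts.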

Additional observations from a re-analysis of the deposited data

How the results depend on the processing

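No paired analysis was possible because the groups share no replicate number. Over 18 alternatives for each of the 64 tested factor genes, 1049 of 1152 values kept their direction and side of the threshold, 25 lost the call, 33 gained it and 45 changed sign. No called gene changed sign. With library size as the only scaling the median of all genes moved from -0.05 to -0.19, calls over all genes were 3152 lower and 1870 higher instead of 2533 and 2503, factor genes were 25 lower and 6 higher, and their median was -0.313. A gene length offset gave 2391 lower and 3086 higher, factor genes 19 and 11, and a median of -0.0780. Leaving out 1 library gave factor gene medians from -0.249 to -0.0953. DESeq2 called 22 factor genes lower and 9 higher, and voom with quality weights 28 and 11. Requiring a log2 fold change of 1 left 1450 lower and 1168 higher genes, of which 10 and 4 were factor genes. The difference in share without Eef1a1 and Eef2 was -0.450 points. Library size as the only scaling removed the calls of Eif4g1 (0.47) and Eif4ebp2 (0.36). RLE factors or the length offset removed that of Eif2s2. DESeq2 added Eef1g, Eif5a2 and Eif6 to the calls.

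Changes of sign were all in genes that were not called. With library size only, values were Eif2ak4 -0.123, Eif2d -0.0754, Eif4a1 -0.0809, Eif4e2 -0.0930, Eif5a -0.0669 and Eif1 -0.0962. With the length offset they were Eif2b1 0.0404, Eif3a 0.05001, Eif3g 0.140, Eif3k 0.0691, Eif3l 0.0499, Eif4ebp1 0.0856, Eif4e 0.0140 and Eif1b 0.00461. With voom they were Eif2d -0.0189, Eif3a 0.125 and Eif4a1 -0.0494, with RLE factors and with DESeq2 Eif3a 0.00924, and with upper-quartile factors Eif2ak4 -0.0133. Leaving out 1 library gave ranges of Eif1 -0.0590 to 0.153, Eif2ak4 -0.268 to 0.185, Eif2b1 -0.240 to 0.00359, Eif2b3 -0.147 to 0.0256, Eif2d -0.00252 to 0.150, Eif3a -0.0727 to 0.156, Eif3g -0.124 to 0.0365, Eif3j2 -0.806 to 0.208, Eif3k -0.169 to 0.113, Eif4a1 -0.0272 to 0.163, Eif4e -0.154 to 0.0905, Eif4e2 -0.0773 to 0.163, Eif4ebp1 -0.239 to 0.0198 and Eif5a -0.0550 to 0.166. The cause of these changes was not tested.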
